A study of Mus musculus with 4 samples.

Results

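The proteasome genes of the Psma, Psmb, Psmc, Psmd and Psme families were compared between mouse granulocytic myeloid-derived suppressor cells, or G-MDSC, and mouse neutrophils. Members were genes whose probe sets carried a single symbol beginning with Psma, Psmb, Psmc, Psmd or Psme and a digit, with Psmb8 and Psmb9 left out. The rule found 42 genes, of 18193 named by a single symbol on the array, on 88 probe sets. Of the 42 genes, 40 encode subunits, assembly chaperones or activators of the proteasome. The other two, Psmc3ip and Psme3ip1, share the letters of the symbol but are not proteasome subunits, and they are counted apart. The probe set of the activator gene Psme2 carries the symbol of a second gene as well, so Psme2 is not reported here. Each gene was represented by its probe set with the highest mean log2(signal + 16) over the 4 arrays.

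G-MDSC are granulocyte-like cells that build up in mice with tumours and dampen T cell responses. Casein, a milk protein, draws neutrophils into the peritoneum by provoking inflammation. The 2 G-MDSC samples came from the spleens of female C57BL/6 mice, 3.5 weeks after EL4 lymphoma cells had been injected under the skin, and were taken on Ly6G microbeads as CD11b+Ly6G+Ly6Clow cells. The 2 neutrophil samples came from the peritoneum of female C57BL/6 mice that received 1.5 ml of 12% casein 2 times with 16 h between and were killed 3 h later. They were depleted of F4/80-positive cells before selection for Ly6G. Red blood cells were lysed with ACK buffer. Tissue, tumour, casein and sorting steps went together with cell kind on every array, so their effects cannot be told apart. The labels leave unsaid whether different mice gave the 2 samples of a group. The p-values therefore reflect only how far these samples spread, which may be technical. Precision is limited by having 2 arrays per group.

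The proteasome is the main protease of the cytosol and nucleus and degrades proteins tagged with ubiquitin. Its 20S core is a barrel of outer alpha rings and inner beta rings, and the active sites lie inside, on the beta subunits Psmb5, Psmb6 and Psmb7. The 19S particle caps the core: its base of ATPases unfolds the substrate, and its lid removes the ubiquitin chain. Interferon replaces the catalytic subunits by inducible forms, of which Psmb10 takes the place of Psmb7, and other caps, PA28 and PA200, open the core without ubiquitin. In mammalian cells the transcription factor Nfe2l1 raises subunit genes together when proteasome activity falls.

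The array values are hybridisation signals on a linear scale with no read depth. Neutrophils replicate 2 had brighter dim probe sets than the rest: the 40th percentile of its signals was 132.7, and that of the other 3 arrays was 45.7 to 52.6. Counts of called members and the members' median are therefore given with and without it. Of 11 granulocyte markers 4 were higher in G-MDSC and 0 lower, at a limma adjusted p under 0.05. Of all genes tested 8.30% were higher and 8.05% lower. The summed signal of the markers was 312848 to 371956 in G-MDSC and 227534 to 271684 in neutrophils. S100a8 was at 53178 and 61944 in G-MDSC and at 58668 and 85891 in neutrophils. Camp, an antimicrobial peptide of neutrophil granules, was at 30456 and 30837 in G-MDSC and at 1277 and 600.4 in neutrophils, and the granule genes Ltf and Ngp and the receptor gene Cxcr2 were the other higher ones. Their part in the proteasome differences was not tested. Of the 40 proteasome genes, 38 lay above the 40th percentile on all 4 arrays. Psma8, a testis form of an alpha subunit, passed only in G-MDSC (65.6 and 60.7, against 41.8 and 91.0 in neutrophils, both below their 40th percentile) and gets no fold. Psmb11, the thymus form of a catalytic subunit, did not pass the filter on low signals, with 6.48 and 3.73 on the G-MDSC arrays and 26.6 and 64.4 on the neutrophil arrays. Thus 39 proteasome genes entered the fit, among 13139 genes.

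Because many members lay to one side together, promoter sequence is shown first: the 250 bases before the start site are given for 4 members, each 5′ to 3′ on the gene's own strand. They are the active-site genes Psmb6 and Psmb5, the inducible Psmb10, which had the largest difference of the members tested, and Psmd14, the deubiquitinase of the lid. Sequences are from RefSeq, build GRCm38.p6. Psmb6 lies on the plus strand at chr11:70525107-70525356 and Psmb5 on the minus strand at chr14:54617996-54618245. Psmb10 lies on the minus strand at chr8:105938393-105938642 and Psmd14 on the plus strand at chr2:61711444-61711693. Capitals mark matches to TGACNNNGC, the core of the antioxidant response element that Nfe2l1 and Nfe2l2 bind, or to CCAAT, the box bound by NF-Y, on either strand.
Psmb6: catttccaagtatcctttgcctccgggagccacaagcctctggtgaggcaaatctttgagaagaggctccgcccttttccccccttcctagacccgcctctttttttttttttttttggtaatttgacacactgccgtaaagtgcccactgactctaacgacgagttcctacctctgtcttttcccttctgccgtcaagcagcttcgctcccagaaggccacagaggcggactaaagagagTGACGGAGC
Psmb5: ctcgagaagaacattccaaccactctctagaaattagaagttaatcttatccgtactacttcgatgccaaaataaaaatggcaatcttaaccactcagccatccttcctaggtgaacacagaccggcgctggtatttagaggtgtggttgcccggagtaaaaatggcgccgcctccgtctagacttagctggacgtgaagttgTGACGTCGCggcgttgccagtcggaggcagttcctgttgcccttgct
Psmb10: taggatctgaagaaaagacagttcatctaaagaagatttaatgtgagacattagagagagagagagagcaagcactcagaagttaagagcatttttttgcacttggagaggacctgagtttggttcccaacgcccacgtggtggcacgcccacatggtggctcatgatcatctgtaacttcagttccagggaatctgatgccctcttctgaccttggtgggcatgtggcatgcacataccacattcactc
Psmd14: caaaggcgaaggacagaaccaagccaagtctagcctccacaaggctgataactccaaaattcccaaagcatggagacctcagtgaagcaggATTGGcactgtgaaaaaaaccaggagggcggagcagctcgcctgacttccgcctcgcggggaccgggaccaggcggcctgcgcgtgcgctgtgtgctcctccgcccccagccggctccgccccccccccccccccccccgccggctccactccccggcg

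The element core of Psmb6 began 9 bases before the start site and read TGACGGAGC, and that of Psmb5 began 47 bases before it and read TGACGTCGC. The window of Psmb10 held neither motif. Psmd14 held a CCAAT box on the minus strand 159 bases before the start site. It held further matches at bases 5 and 8 after that site, outside the stretch printed. A window reaching from 250 bases before to 50 after a start site was at hand for 33 of the 40 proteasome genes. The element core occurred in 6 of these 33 genes, or 18.2%, against 14.0% of all 27025 genes with a window. The 6 were Psmb5, Psmb6, Psmc6, Psmd9, Psmd12 and Psme4. A CCAAT box occurred in 13 of the 33, or 39.4%, against 41.1% of all genes. The motifs overlapped in 0 of the windows. A match describes letters and is not evidence of a binding site.

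Through most of the core and the 19S particle, signals on the G-MDSC arrays lay under those on the neutrophil arrays. Of 39 proteasome genes tested, 8 were lower in G-MDSC and 0 higher (called, meaning a limma adjusted p under 0.05), where 8.05% of all genes tested were lower and 8.30% higher. At an unadjusted p under 0.05, 14 were lower and 0 higher, against 14.6% and 15.0% of all genes. Both G-MDSC arrays lay below both neutrophil arrays for 29 of the 39 (74.4%), against 32.2% of all genes, and above both for 1, against 27.3% of all genes. The log2 difference, G-MDSC minus neutrophils, was below 0 for 34 of the 39 in the deposited scaling, against 57.1% of all genes. With each array centred on its median it was below 0 for 21 of the 39, against 33.9% of all genes. Its median over the 39 was -0.66, beside -0.18 for all genes tested, so the members' median lay 0.48 log2 units under that of all genes. Without neutrophils replicate 2 these medians were -0.41 and 0.034, or 0.44 units apart. With the filter on low signals at the 60th percentile they were -0.67 and 0.048. The members were bright: on each array their median log2 signal lay 2.80 to 3.33 above that of all genes tested. All genes are therefore a dimmer background. In the main fit the members' differences ran from -1.36 to 0.37, the called ones were at least 1.02 in size, and the largest not called was 0.86. In bulk samples fewer cells of a type and less RNA per cell cannot be told apart.

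**Figure D1:**
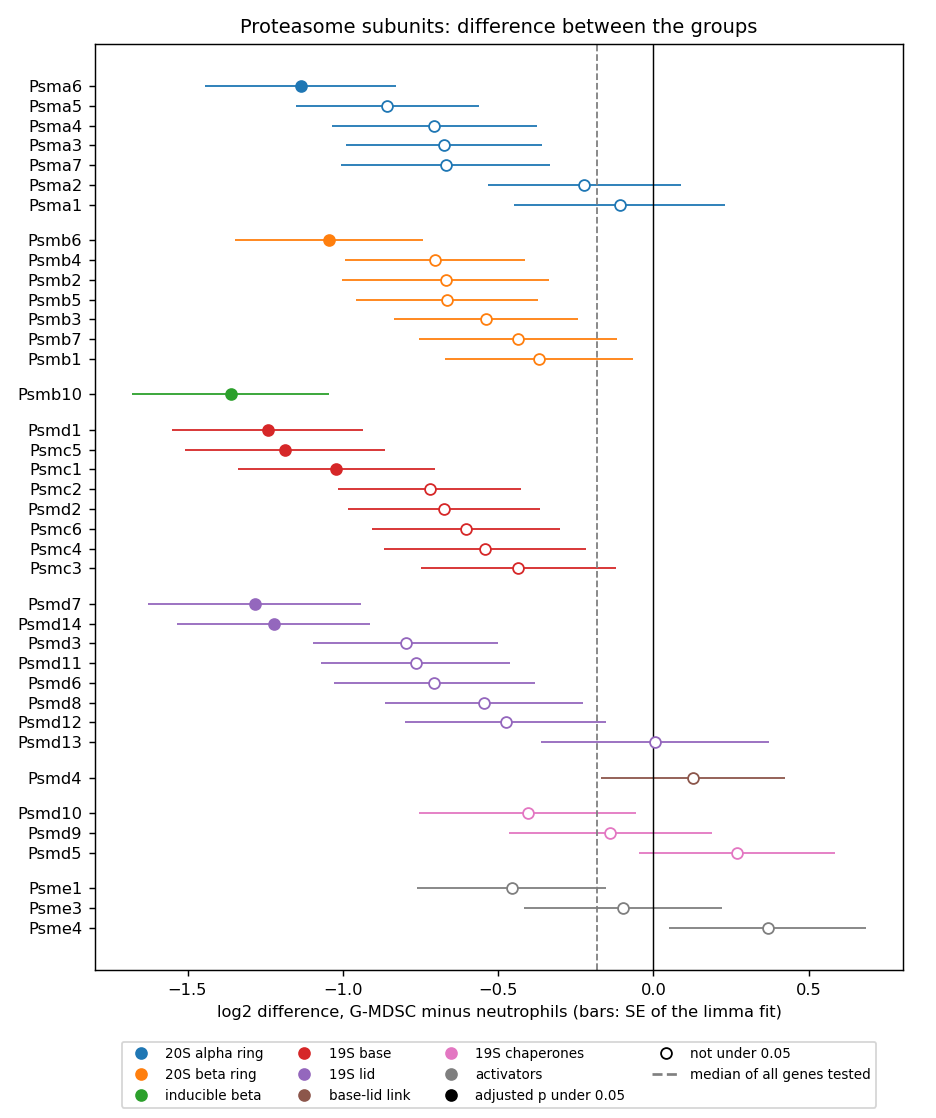
Log2 difference (G-MDSC minus neutrophils, x axis) of the proteasome genes tested other than Psma8, by class (rows), with the SE of the limma fit as bars and filled points where the adjusted p is under 0.05. In the deposited scaling the core and 19S genes sit mostly left of the dashed median of all genes (-0.18), with Psma1, Psmd13 and Psmd4 right of it. The 8 filled points run from Psmb10 at -1.36 to Psmc1 at -1.02. With each array centred on its median, 21 of the 39 differences are below 0, against 33.9% of all genes.

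The 8 lower genes came from the alpha ring (1), the beta ring (1), the inducible catalytic subunits (1), the base (3) and the lid (2). Psmd4, which links base and lid, the 19S assembly chaperones and the activators gave 0 at that threshold and 0 at an unadjusted p under 0.05. Leaving out an array leaves 1 group with a single array, whose spread is then assumed to equal that of the 2 arrays of the other group, so such calls do not carry the spread of the reduced group. Without neutrophils replicate 2 the fit called 11 lower and 0 higher, where 11.2% of all genes were lower. The 8 were among the 11, the others being Psmc2, Psmd3 and Psmd11. Without neutrophils replicate 1 it called 20 lower, where 25.1% of all genes were lower. Leaving out G-MDSC replicate 1 or 2 left 0 or 1 called lower (Psmb10), and 7 or 5 at an unadjusted p under 0.05. Among all genes 4.77% or 4.73% were then lower. With each array centred on its median, limma called 0 lower, and 0 at an unadjusted p under 0.05, where 3.45% of all genes were lower. The shares of all genes in this paragraph are at the adjusted threshold, so they give no background for the unadjusted counts. Without the intensity trend limma called 0, where 2.52% of all genes were called lower, with 9 members lower at an unadjusted p under 0.05. Macrophage markers, given below, were lower in the same arrays, and their part in these differences was not tested.

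Among the active sites of the core, Psmb6 (the caspase-like site) passed the test and Psmb5 and Psmb7 did not. Psmb6 had signals of 2309 and 1867 on the G-MDSC arrays and 3942 and 4681 on the neutrophil arrays. Both G-MDSC arrays were under both neutrophil arrays, and they differed by -1.04 ± 0.30 log2 units (SE, n = 2 per group; limma adjusted p = 0.0371), a 2.06-fold fall. Psmb5, the chymotrypsin-like site, measured 3014 and 2619 on the G-MDSC arrays against 4336 and 4592 on the neutrophil arrays. The groups again did not overlap, but the difference of -0.66 ± 0.29 missed the threshold (adjusted p = 0.157). Psmb7, the trypsin-like site, measured 3266 and 2870 on the G-MDSC arrays and 3355 and 5126 on the neutrophil arrays. Its groups lay almost side by side in replicate 1 (difference -0.04) and apart in replicate 2 (-0.83), giving -0.44 ± 0.32 (adjusted p = 0.395).

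Psmb10, the interferon-inducible counterpart of Psmb7, had the largest difference of the 39. Its signal was 1025 and 1524 on the G-MDSC arrays and 3240 and 3232 on the neutrophil arrays, a 2.57-fold fall (log2 difference -1.36 ± 0.32, limma adjusted p = 0.0139). The neutrophil arrays were nearly equal, and both G-MDSC arrays lay far below them. This gene was the one still called without G-MDSC replicate 2. Other beta ring genes, which are structural, also had both G-MDSC arrays below both neutrophil arrays, as had 32.2% of all genes tested. Their differences ran from -0.37 (Psmb1) to -0.70 (Psmb4), and none passed the test.

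Of the 8 alpha ring genes, whose subunits form the gate of the core, 1 (12.5%, against 8.05% of all genes) was lower, Psma6. It measured 8298 and 7908 on the G-MDSC arrays against 15254 and 20789 on the neutrophil arrays (log2 difference -1.13 ± 0.31, limma adjusted p = 0.0276). All 4 of its kept probe sets gave a difference below 0, from -1.13 to -0.44. Its call was lost without the filter on low signals (limma adjusted p = 0.0690). Like 32.2% of all genes tested, Psma3, Psma4, Psma5 and Psma7 had both G-MDSC arrays below both neutrophil arrays. Their differences were between -0.67 and -0.86, short of the threshold. Psma5 came closest, with 2924 and 2702 on the G-MDSC arrays and 4681 and 5562 on the neutrophil arrays (adjusted p = 0.0726). Psma1 and Psma2 overlapped between the groups, at -0.11 ± 0.34 and -0.22 ± 0.31. Without neutrophils replicate 2 both were above 0, at 0.27 and 0.042. The median over 4 probe sets of Psma1 was above 0 too, at 0.68 (adjusted p = 0.308).

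In the 19S base all 8 genes had both G-MDSC arrays below both neutrophil arrays, and 3 passed the test. Of all genes tested 32.2% had their arrays so placed and 8.05% were called lower. Psmd1, a large scaffold of the base, measured 1231 and 961 on the G-MDSC arrays and 2717 and 2477 on the neutrophil arrays (log2 difference -1.24 ± 0.31, limma adjusted p = 0.0184). Psmc5, an ATPase of the ring, measured 1165 and 1022 on the G-MDSC arrays and 2057 and 3041 on the neutrophil arrays (-1.19 ± 0.32, adjusted p = 0.0280). Psmc1, another ATPase, measured 1205 and 882 on the G-MDSC arrays and 1978 and 2245 on the neutrophil arrays (-1.02 ± 0.32, adjusted p = 0.0487). It stood closest to the threshold, and with a pseudocount of 64 its adjusted p was 0.0509. The 5 other base genes, Psmc2, Psmc3, Psmc4, Psmc6 and the scaffold Psmd2, which docks ubiquitin carriers, had differences from -0.72 to -0.43. A probe set of Psmc2 other than the representative gave 0.10.

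In the lid 2 of 8 genes passed the test, and they form its enzyme pair. Psmd14, the metalloprotease that cuts off ubiquitin chains, measured 3440 and 2487 on the G-MDSC arrays against 6289 and 7456 on the neutrophil arrays (log2 difference -1.22 ± 0.31, limma adjusted p = 0.0205). Psmd7, its catalytically inactive partner, measured 366 and 474 on the G-MDSC arrays against 882 and 1218 on the neutrophil arrays (-1.28 ± 0.34, adjusted p = 0.0257). Both genes fell more than 2-fold, by 2.33 and 2.43 times. The call of Psmd7 was lost when arrays were quantile normalized (adjusted p = 0.0548) and with the median over its probe sets (0.0576). The scaffold genes Psmd3, Psmd6, Psmd8, Psmd11 and Psmd12 ranged from -0.80 to -0.47 without overlap of the groups. Psmd11 was called with the median over its 5 kept probe sets, at -1.17 (adjusted p = 0.0396).

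**Figure D2:**
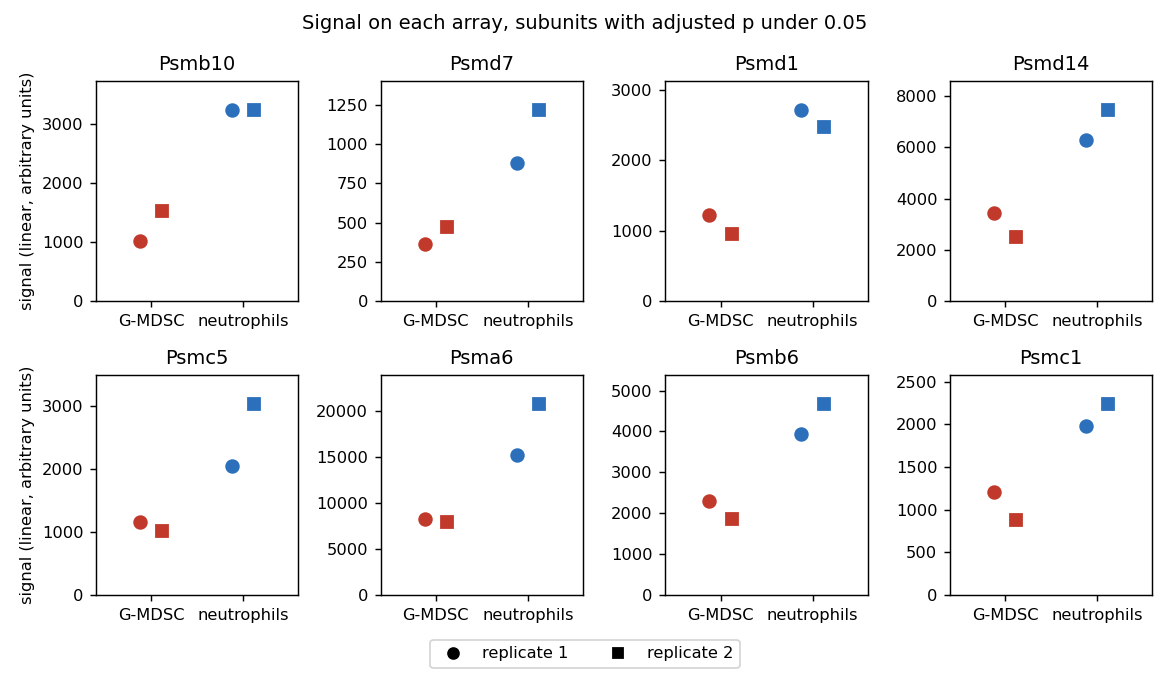
Signal on each array (linear, from 0) of the 8 genes with an adjusted p under 0.05, G-MDSC in red on the left and neutrophils in blue on the right of each panel, circles for replicate 1 and squares for replicate 2. In every panel both G-MDSC arrays lie below both neutrophil arrays. Psmb10 has neutrophil signals of 3240 and 3232.

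Of the 19S genes, Psmd13 and Psmd4 lay near 0 by their representative probe sets. Psmd13, a lid scaffold, measured 2144 and 1423 on the G-MDSC arrays and 2331 and 1300 on the neutrophil arrays, a difference of 0.00 ± 0.37. On both kinds of cell its replicate 1 was the brighter array. Its 4 kept probe sets ran from 0.00 to 1.24, and the median over them gave 0.62 (limma adjusted p = 0.252). Psmd4, the ubiquitin receptor between base and lid, measured 3048 and 2971 on the G-MDSC arrays and 2981 and 2542 on the neutrophil arrays (0.13 ± 0.30, or -0.018 with quantile normalization). Its 3 kept probe sets ran from 0.038 to 0.92.

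The assembly chaperones of the base did not pass the test. Psmd10 (gankyrin) measured 752 and 942 on the G-MDSC arrays and 871 and 1437 on the neutrophil arrays, and the groups overlapped (log2 difference -0.40 ± 0.35). Psmd5 was the 1 proteasome gene with both G-MDSC arrays above both neutrophil arrays, at 979 and 852 on the G-MDSC arrays against 720 and 792 on the neutrophil arrays (0.27 ± 0.32, limma adjusted p = 0.606). Psmd9 lay at -0.14 ± 0.33, or -0.37 with the median over its probe sets.

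The activator genes did not pass the test either. Psme1, the alpha subunit of PA28, measured 3940 and 5167 on the G-MDSC arrays and 6629 and 5795 on the neutrophil arrays, without overlap (log2 difference -0.46 ± 0.30, limma adjusted p = 0.348). Psme3, the nuclear PA28 gamma, measured 849 and 711 on the G-MDSC arrays and 833 and 832 on the neutrophil arrays (-0.10 ± 0.32). Its second kept probe set gave -0.93, and the median over both gave -0.52 (limma adjusted p = 0.327). Psme4, which encodes PA200, measured 2285 and 1713 on the G-MDSC arrays and 1723 and 1358 on the neutrophil arrays (0.37 ± 0.32, adjusted p = 0.472), with overlapping groups. Its 6 kept probe sets disagreed, from -0.85 to 0.97. Whether the activators differ from the core in their response was not tested. Of the genes that only share the letters, Psme3ip1 measured 1508 and 1513 on the G-MDSC arrays and 1114 and 756 on the neutrophil arrays (0.71 ± 0.33, adjusted p = 0.172). Psmc3ip was dim, with overlapping groups.

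**Figure D3:**
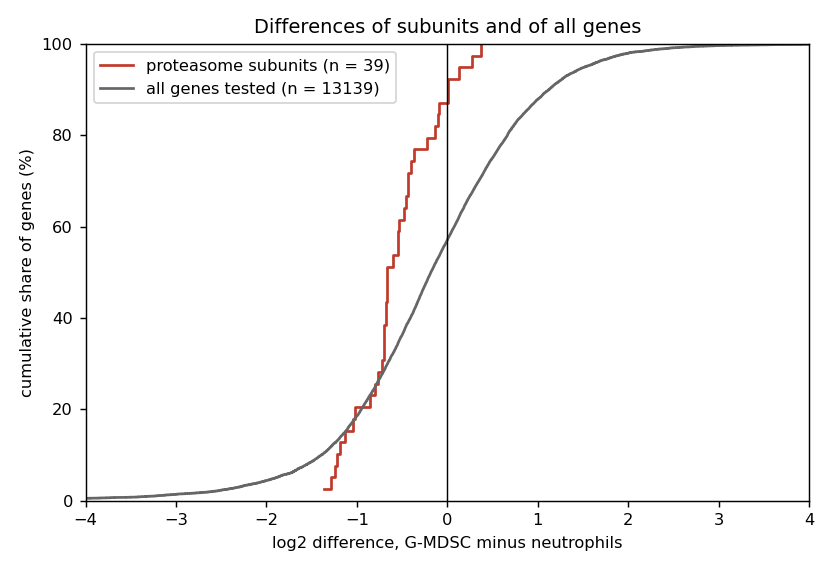
Cumulative share of genes (y axis, %) against the log2 difference, G-MDSC minus neutrophils (x axis, shown from -4 to 4), for the 39 proteasome genes (red) and all 13139 genes tested (grey). The red line rises steeply around its median of -0.66, and its members stay between -1.36 and 0.37, whereas the grey line spreads on both sides of -0.18. Values are in the deposited scaling, and with each array centred on its median 21 of the 39 and 33.9% of all genes are below 0.

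Replicates of a group also differed. On neutrophils replicate 2, 26 of the 39 were brighter than on neutrophils replicate 1, and on G-MDSC replicate 2, 16 were brighter than on G-MDSC replicate 1. Over all probe sets the median signal was 83.3 and 177.9 on neutrophils replicates 1 and 2. On G-MDSC replicates 1 and 2 it was 75.8 and 80.7. In the replicate 1 pair the members' median difference was -0.50, beside 0.00 for all genes. In the replicate 2 pair it was -0.69, beside -0.33 for all genes. Of the 39, 31 were below 0 in both pairs. For this count and the counts of brighter genes the share over all genes was not taken. Summed over the 39 genes, the signal was 102827 and 102318 on the G-MDSC arrays and 148075 and 175279 on the neutrophil arrays. The sum is weighted towards bright probe sets.

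Probe sets other than the representative ones give a partly separate reading of the same genes. Of the 76 kept probe sets of proteasome genes, 59 had a difference below 0. Of the 37 that were not the representative, 25 were below 0. By their representative probe sets 57.1% of all genes tested were below 0, and the share over all kept probe sets was not taken. In 16 of the 19 genes with more than 1 kept probe set, all of them had the same sign, and the exceptions were Psma1, Psmc2 and Psme4.

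The assembly chaperones outside the Psma to Psme families were listed together with Akirin2, which is not an assembly chaperone. Of these 6 genes 2 (33.3%) were lower and 0 higher. Of all genes 8.05% were lower and 8.30% higher, and the median of the 6 was -0.85. At an unadjusted p under 0.05, 4 were lower and 1, Akirin2, was higher (log2 difference 0.70 ± 0.30). The 5 other differences were below 0. With median centring limma called 0 of them, with 2 lower and 0 higher unadjusted, and without the trend 0, with 3 lower and 0 higher unadjusted. Psmg4, a chaperone of alpha ring assembly, measured 202 and 292 on the G-MDSC arrays against 897 and 1156 on the neutrophil arrays, a 3.99-fold fall (log2 difference -2.0 ± 0.36, limma adjusted p = 0.00344). Psmg2, which pairs with Psmg1 on the alpha ring, measured 217 and 111 on the G-MDSC arrays against 437 and 628 on the neutrophil arrays (-1.65 ± 0.43, adjusted p = 0.0229). Its call was lost without G-MDSC replicate 2 (adjusted p = 0.254), without the filter on low signals (0.0598) and with quantile normalization (0.0504). Without neutrophils replicate 2 the median difference of the 6 genes was -0.72.

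**Figure D4:**
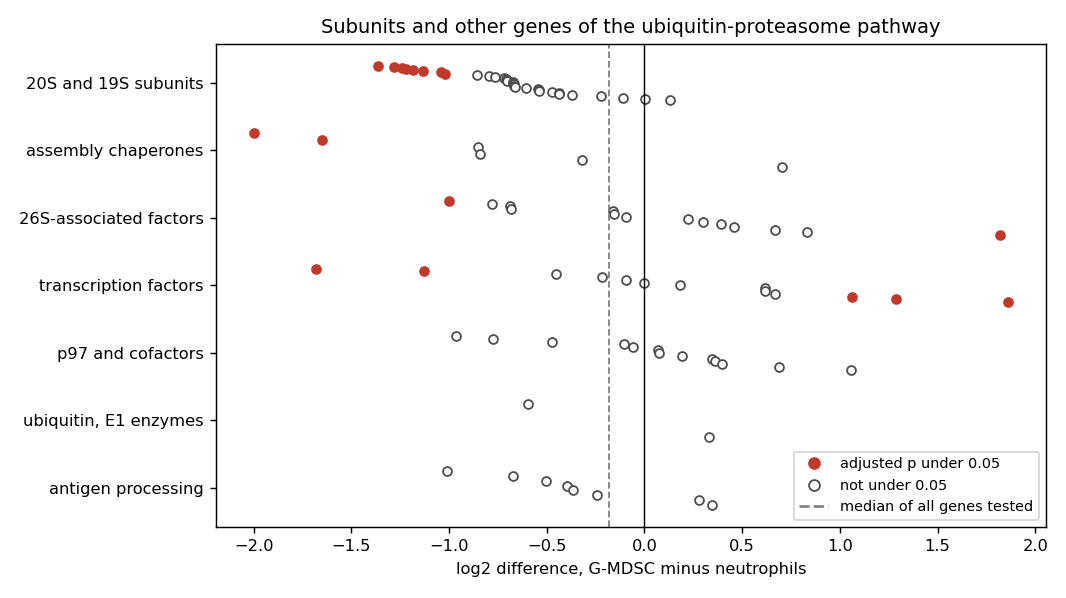
Log2 difference (G-MDSC minus neutrophils, x axis) of single genes in the 20S and 19S particle without Psma8 and in 6 other lists of the ubiquitin-proteasome pathway (rows), red where the adjusted p is under 0.05. Values are in the deposited scaling. The subunit genes run from -1.36 to 0.13, the antigen processing genes from -1.01 to 0.35 and the list of transcription factors from -1.68 to 1.86.

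Of 14 associated subunits and factors, 1 was lower and 1 higher (7.14% each), a share near the 8.05% and 8.30% of all genes, and 7 differences were below 0. Zfand2a, a heat- and arsenite-inducible partner of the 19S cap, measured 5840 and 9577 on the G-MDSC arrays and 1818 and 2437 on the neutrophil arrays (log2 difference 1.82 ± 0.34, limma adjusted p = 0.00439), a 3.53-fold rise. Txnl1, a thioredoxin-like protein bound to the lid, measured 3864 and 3054 on the G-MDSC arrays against 6442 and 7359 on the neutrophil arrays (-1.0 ± 0.30, adjusted p = 0.0434). The call of Zfand2a was lost without G-MDSC replicate 2 (limma adjusted p = 0.0603), and that of Txnl1 without G-MDSC replicate 1 (0.166) or 2 (0.419), with median centring (0.783), without the filter (0.0531) and with the median over probe sets (0.142). Without the trend neither was called (0.0725 for Zfand2a and 0.154 for Txnl1). Without neutrophils replicate 2 the median difference of the list was -0.026, beside 0.065 with all arrays.

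Among 13 transcription factors of proteasome genes and proteins that activate them, 2 were lower (15.4%) and 3 higher (23.1%), against 8.05% and 8.30% of all genes. These counts moved with the scaling: quantile normalization gave 2 lower and 0 higher, and median centring gave 0 lower and 1 higher, the call of Foxo4. Without the trend limma called 0, with 2 lower and 3 higher at an unadjusted p under 0.05. Nfe2l1 measured 847 and 649 on the G-MDSC arrays and 1911 and 1406 on the neutrophil arrays (log2 difference -1.13 ± 0.33, limma adjusted p = 0.0378), a 2.19-fold fall, and its relative Nfe2l2 overlapped between the groups (-0.45 ± 0.34). The call of Nfe2l1 was lost without G-MDSC replicate 1 (adjusted p = 0.135) or 2 (0.369). Of the small Maf partners of these factors, Maff was lower, with 1359 and 2195 on the G-MDSC arrays against 5316 and 5848 on the neutrophil arrays (-1.68 ± 0.33), and Mafk was higher (1.06 ± 0.32). Foxo4 and Foxo3 were higher, by 1.86 ± 0.56 and 1.28 ± 0.38, and both calls were lost without neutrophils replicate 2, at 0.90 and 0.73 (adjusted p = 0.0544 and 0.0768). With the median over probe sets they were 0.51 and 1.0 (adjusted p = 0.525 and 0.0682). On neutrophils replicate 2 Foxo4 was at 54.0, below the 40th percentile. Without that array the median difference of the list was 0.013, beside 0.18 with all arrays. Without G-MDSC replicate 1 the list gave 0 calls, with 2 lower and 3 higher at an unadjusted p under 0.05, and without G-MDSC replicate 2 it gave 1, the lower call of Maff (limma adjusted p = 0.00299).

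Lists further along the pathway gave no call in the fit of all arrays without a replicate block. With that block 2 of the p97 genes were lower and 1 higher, and 1 antigen processing gene was lower. Of all genes 12.2% were then lower and 12.9% higher. Of 13 genes of p97 (the segregase Vcp) and its cofactors, 0 passed limma's threshold, with 2 lower and 1 higher at an unadjusted p under 0.05. Vcp itself measured 5886 and 4121 on the G-MDSC arrays and 9783 and 7267 on the neutrophil arrays (-0.77 ± 0.32, adjusted p = 0.133). With a single neutrophil array, replicate 1, its difference was -0.99 (adjusted p = 0.00846). Ubxn4, an anchor of p97 at the endoplasmic reticulum, lay at 0.40 ± 0.30, or 0.015 with the median over probe sets. Uba6, which activates ubiquitin, and Uba3, the catalytic subunit of the enzyme that activates the related modifier Nedd8, were the 2 genes tested of a list of ubiquitin genes and activating enzymes. They lay at -0.60 ± 0.36 and 0.33 ± 0.35 and gave 0 calls, and 0 at an unadjusted p under 0.05. Of 8 interferon-inducible antigen processing genes 0 passed, adjusted or unadjusted. B2m measured 19415 and 38104 on the G-MDSC arrays and 28910 and 51564 on the neutrophil arrays (-0.51 ± 0.41), and Tapbp, the peptide-loading factor tapasin, lay at -0.24 ± 0.34, or -0.43 with the median over probe sets. The difference between Psmb10, which was called, and these genes was not tested. Without neutrophils replicate 2 the median differences of these 3 lists were 0.16, -0.12 and -0.52, in the order given, beside 0.034 for all genes. With all arrays they were 0.077, -0.13 and -0.38.

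Other cell types were checked by their markers. Each count of called markers below stands beside all genes tested, of which 8.05% were lower and 8.30% higher. Among 15 genes marking macrophages, 10 were lower and 0 higher in G-MDSC, and their summed signal was 17366 to 17385 in G-MDSC and 44831 to 65860 in neutrophils. Of 10 dendritic cell and monocyte markers 8 were lower, with sums of 26922 to 28691 in G-MDSC and 71486 to 91947 in neutrophils. Of 10 markers of mast cells and basophils 5 were lower and 1 higher, with sums of 20035 to 22583 in G-MDSC and 30863 to 41147 in neutrophils. The mast cell proteases Cma1, Mcpt4 and Tpsb2 were below the 40th percentile on both G-MDSC arrays, and no marker was listed at exactly 0. Mcpt8, the 1 higher, was below it on both neutrophil arrays (7.96 and 132.2). So was the cell cycle gene Tk1, among the higher ones given below (16.2 and 27.0). Each of these genes passed the filter through 1 group only, so the counts that include them rest partly on that filter. Of 9 plasma and B cell markers 2 were lower and 2 higher, with sums of 38630 to 40371 in G-MDSC and 42846 to 58506 in neutrophils. Of 20 cell cycle genes 9 were higher and 0 lower, with sums of 20678 to 40409 in G-MDSC and 14855 to 15626 in neutrophils. T and NK cell markers summed to 384 to 835 in G-MDSC and 922 to 1094 in neutrophils, with 1 of 7 lower, and of 7 erythroid markers 0 were called, with 0 at an unadjusted p under 0.05. The part of these cells in the proteasome differences was not tested.

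**Figure D5:**
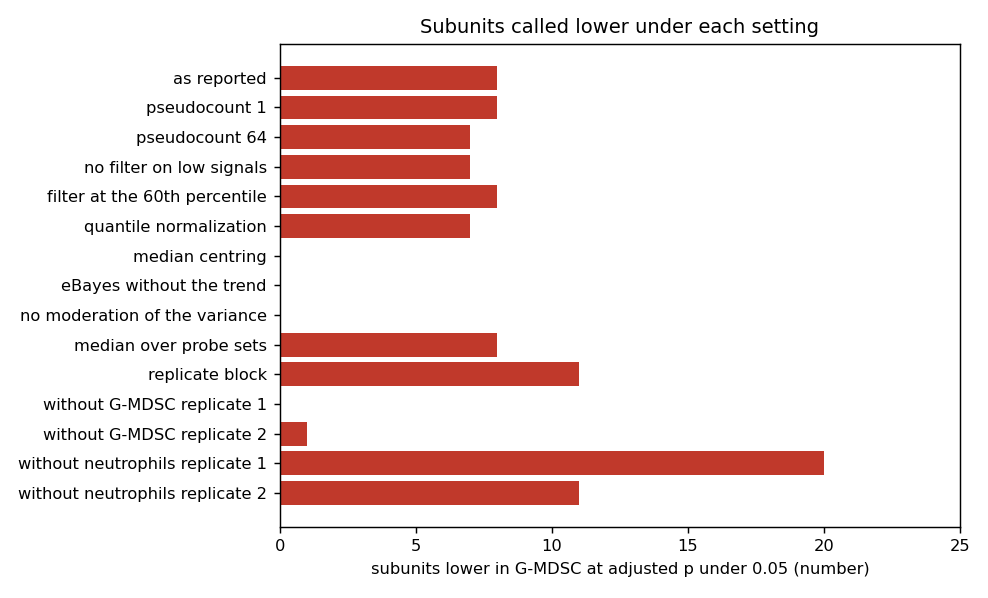
Number of proteasome genes lower in G-MDSC at an adjusted p under 0.05 (x axis, from 0) under each setting (rows). Among all 13139 genes, 0 are called without moderation and 12.2% are lower with the replicate block. The count is 7 or 8 under the pseudocounts, filters, quantile normalization and probe set choices shown, 11 with the replicate block and without neutrophils replicate 2, and 20 without neutrophils replicate 1. It is 0 with median centring, without the trend, without moderation and without G-MDSC replicate 1, and 1 without G-MDSC replicate 2.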

How the data were processed

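The signal intensity values deposited by the authors were made with the tools GCOS 1.4 and MAS5, as the submitters' processing notes name them. Their mean with 2% of probe sets trimmed at each end is 500.0 on each array, which shows a common scaling. Other settings are not given in the sources used here. Genes were named from the platform annotation, through probe sets with 1 symbol.

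All values were taken to log2(signal + 16), a scale on which folds of dim genes come out too small. Probe sets above the 40th percentile of their array on at least 2 of 4 arrays were kept, and the 64 control probe sets were left out. A gene took the brightest of its kept probe sets. All 13139 genes were fitted with limma 3.58.1 in R 4.3.3 (lmFit, eBayes with an intensity trend), two-sided, with Benjamini-Hochberg adjustment over all of them and a threshold of 0.05. The fit was tested on simulated data. Figures used Python 3.11.15 with matplotlib 3.10.9. With 2 against 2 arrays no exact permutation test can reach the threshold, and none was run.

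The members and gene lists were chosen with earlier results of these data known. Signals on all arrays are given for the catalytic and activator genes and, in each class, for up to 3 called members per direction with the largest differences, or the 2 brightest where none was called. In the pathway lists the named genes follow the same rule. Psma5, Psmd13, Psme3ip1, Nfe2l2, Adgre1, the granulocyte genes named and the 4 promoters printed were chosen after their values were seen. Alternatives were other pseudocounts (1 and 64), filters, normalizations, variance models, probe set choices, a replicate block, and fits without each array in turn.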

Additional observations from a re-analysis of the deposited data

How the results depend on the processing

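The number of proteasome genes lower in G-MDSC was 0 with median centring, 0 without the trend, 0 without moderation and between 0 and 20 when 1 array was left out, while 7 or 8 were called under the other pseudocounts, filters, quantile normalization and probe set choice. With the replicate block it was 11, the 8 among them, where 12.2% of all genes were lower. Without moderation 0 of all 13139 genes were called. Same-numbered arrays deviated from their group means with a correlation of 0.24 over genes, but the labels name no shared source, so the arrays share only a number. The number called higher was 0 under every alternative. The members' median minus that of all genes was -0.48, or -0.35 without a filter, -0.71 with the filter at the 60th percentile and -0.76 with quantile normalization, where the set of genes tested or their scaling differs. It ran from -0.52 to -0.44 without 1 array.

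Signs turned for genes that were not called. Median centring adds the same 0.56 to every difference and moved the median of all genes to 0.38, so the 16 signs it turned say nothing on single genes: the differences were 0.45 for Psma1, 0.34 for Psma2, 0.19 for Psmb1, 0.019 for Psmb3, 0.12 for Psmb7, 0.12 for Psmc3, 0.48 for Psmc3ip, 0.017 for Psmc4, 0.15 for Psmd10, 0.083 for Psmd12, 0.012 for Psmd8, 0.42 for Psmd9, 0.10 for Psme1, 0.46 for Psme3, 0.053 for B2m and 0.31 for Tapbp. With quantile normalization they were 0.42 for Psmc3ip, -0.14 for Psmd13 and -0.018 for Psmd4. With the median over probe sets they were 0.68 for Psma1, -0.051 for Psme4 and -0.049 for Uba3. Without 1 array the ranges were -0.49 to 0.27 for Psma1, -0.49 to 0.042 for Psma2, -0.78 to 0.50 for Psmc3ip, -0.41 to 0.42 for Psmd13, -0.22 to 0.028 for Psme3 and -0.59 to 0.10 for Tapbp. Where no construction is named, the cause was not tested. For the single genes, 618 values kept direction and side of the threshold, 95 lost a call, 24 gained one and 32 turned sign, 16 of them by median centring. All calls rest on moderation over genes with 2 arrays per group.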
